A study of Mus musculus with 12 samples.

Results

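A set of 10 mouse genes that few studies have examined in the oocyte were followed in ovaries with and without Lhx8. They are Elobl, Cpsf4l, Slc30a3, Khdc1a, Khdc1b, Khdc1c, Rfpl4, Omt2a, Omt2b and Oog1, and they were picked from these same arrays for a large fall in the knockout or for oocyte restriction. Of the 10 genes, 9 had a probe on the array, with 16 of its 45281 probes between them. Oog1 had none in the annotation used here and has no value below. RNA came from whole ovaries of wild-type and Lhx8 knockout mice on a mixed 129, C57BL/6 and SF1 background, taken on the day of birth (P0) or at 7 days of age (P7). There were 3 animals in each of the 4 combinations of genotype and age, and every animal had its own Illumina BeadChip array. The labels name the tissue as oocytes, whereas the protocols describe ovaries, and the text follows the protocols. No Cre or other transgene is named in the labels, which do not state whether Lhx8 was lost in every tissue.

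Lhx8 is a LIM homeobox transcription factor of the oocyte, and mouse ovaries without it lose their oocytes after birth. Around birth the mouse ovary encloses its oocytes in primordial follicles. In the following days the first of them begin to grow and to store the RNAs and proteins that the early embryo will use. The genes followed here have relatives with well-described jobs. Elobl resembles elongin B, an adaptor of ubiquitin ligases and of an elongation factor. Cpsf4l resembles the zinc finger subunit CPSF4 of the complex that cleaves and polyadenylates pre-mRNA, and Slc30a3 encodes ZnT3, which loads zinc into synaptic vesicles in mouse brain. The Khdc1 genes belong to a family of KH-domain genes of oocyte and early embryo, Rfpl4 encodes a RING finger protein that has been reported to bind ubiquitin and proteasome proteins in mouse oocytes, and Oog1 is a germ cell gene of the PRAME family. Little is known of what Omt2a and Omt2b (oocyte maturation, alpha and beta) do.

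The stretch before the start site is shown for 6 of these genes, because the binding motifs of oocyte regulators are known. RefSeq (build GRCm38.p6) gave 10 promoters for 8 of the 10 genes, and none for Khdc1a and Khdc1c. The promoters of Slc30a3 and Oog1 and the second start of Cpsf4l were searched and counted but are not shown. The lines below are thus a selection, and Slc30a3, left out of it, also lost signal in the knockout at both ages. Each line holds the 250 bases before the annotated start, 5′ to 3′ on the strand of the gene. Elobl lies at chr11:88966932-88967181 (minus strand), the first start of Cpsf4l at chr11:113710018-113710267 (minus), Khdc1b at chr1:21383306-21383555 (plus), Rfpl4 at chr7:5116912-5117161 (minus), Omt2a at chr9:78314049-78314298 (minus) and Omt2b at chr9:78327780-78328029 (plus). Capitals mark 4 motifs searched on both strands: TGATTG, which has been reported for Lhx8 in mouse, TAATTG and TAATTA, reported for Nobox, and the E-box CANNTG bound by Figla and Sohlh factors.
Elobl: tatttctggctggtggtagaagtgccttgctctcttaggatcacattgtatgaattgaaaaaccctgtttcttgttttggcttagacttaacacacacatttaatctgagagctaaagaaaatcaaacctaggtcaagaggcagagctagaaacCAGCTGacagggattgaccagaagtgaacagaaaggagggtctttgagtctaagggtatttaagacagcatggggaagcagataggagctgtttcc
Cpsf4l: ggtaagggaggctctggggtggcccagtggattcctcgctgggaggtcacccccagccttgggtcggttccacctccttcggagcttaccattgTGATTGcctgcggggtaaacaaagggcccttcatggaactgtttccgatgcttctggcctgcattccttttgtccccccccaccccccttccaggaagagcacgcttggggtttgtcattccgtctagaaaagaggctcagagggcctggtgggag
Khdc1b: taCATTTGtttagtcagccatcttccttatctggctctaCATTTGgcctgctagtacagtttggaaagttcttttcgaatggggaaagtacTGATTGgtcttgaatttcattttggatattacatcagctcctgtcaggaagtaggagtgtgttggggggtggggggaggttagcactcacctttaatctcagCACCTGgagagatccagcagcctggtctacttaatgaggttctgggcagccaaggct
Rfpl4: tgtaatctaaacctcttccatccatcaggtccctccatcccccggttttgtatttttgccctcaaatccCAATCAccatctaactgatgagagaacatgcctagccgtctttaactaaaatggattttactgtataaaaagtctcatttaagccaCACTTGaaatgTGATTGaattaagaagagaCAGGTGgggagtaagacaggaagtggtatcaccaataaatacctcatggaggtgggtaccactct
Omt2a: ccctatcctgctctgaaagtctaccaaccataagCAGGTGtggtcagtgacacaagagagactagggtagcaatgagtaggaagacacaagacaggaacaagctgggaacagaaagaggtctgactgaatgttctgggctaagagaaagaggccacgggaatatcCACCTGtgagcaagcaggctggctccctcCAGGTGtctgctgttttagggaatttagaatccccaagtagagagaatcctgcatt
Omt2b: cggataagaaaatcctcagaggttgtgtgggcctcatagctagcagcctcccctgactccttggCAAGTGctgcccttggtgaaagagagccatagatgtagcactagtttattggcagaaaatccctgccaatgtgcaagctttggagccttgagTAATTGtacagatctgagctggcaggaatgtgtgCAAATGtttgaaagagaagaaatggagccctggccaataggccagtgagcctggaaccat

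TGATTG stood in 3 of the 10 promoters (Cpsf4l, Khdc1b and Rfpl4), against 12.7% of all 32851 promoters of the same length. Counted from the start site, its match began at position −156 in Cpsf4l and −159 in Khdc1b. Rfpl4 held matches at −181 and −84, the farther one on the opposite strand. TAATTG stood in the Omt2b promoter alone (7.2% of all promoters), and TAATTA in the second start of Cpsf4l alone (4.8%). At least 1 E-box was present in 7 of the 10, against 66.2% of all. The promoters of Slc30a3, which has 2 starts, held none of the 4 motifs. These are matches of letters in 1 window, and no binding was measured.

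Values are z scores after quantile normalization, so 1 unit is 1 SD of the log2 signals of an array. On 12 same-named columns of log2 signal, that unit was worth between 1.70-fold and 4.29-fold, which is why differences are given in z units and not as folds. Background is the 95th percentile, on each array, of 1526 probes for receptors of smell (the olfactory, vomeronasal and trace amine families). It lay between −0.21 and 0.08 at P0 and between −0.43 and −0.38 at P7. The P0 and P7 columns were deposited with different numbers of decimals. Whether both ages were processed together is not known, and any difference in processing between them could not be told apart from age. The Lhx8 probe was lower in knockout, with 0.25 ± 0.06 (SD, n = 3) beside 1.30 ± 0.38 at P0 and −0.24 ± 0.09 beside 0.97 ± 0.16 at P7. It stayed above background on all 6 knockout arrays, and its place relative to the deletion is not stated in the sources used. Oocyte identity markers (11 genes such as Gdf9 and Zp3) averaged 2.11 to 2.86 on newborn wild-type arrays against 0.01 to 0.31 on newborn knockout arrays, and at P7 3.66 to 3.94 against 0.19 to 0.36. In knockout, 6 of the 11 were not above background on any array at P0 and 4 at P7. General germ cell markers (7 genes) averaged 1.54 to 1.76 against 1.15 to 1.44 at birth, and 1.33 to 1.58 against 0.10 to 0.13 at P7. They did not move alike at birth, where limma called 3 lower and 2 higher in knockout (adjusted p below 0.05). Of all genes tested, 10.7% were lower and 9.03% higher at that age. In whole ovary, fewer oocytes and less RNA per oocyte cannot be told apart. Granulosa markers (12 genes) moved with genotype at P7 (1.46 to 1.68 in wild type, 1.02 to 1.13 in knockout), as did stromal markers (9 genes; 1.88 to 2.02 and 2.75 to 2.76) and surface epithelium markers (7 genes; 0.46 to 0.69 and 1.15 to 1.30). The granulosa markers did not move alike, and limma called 7 lower and 1 higher in knockout at P7. Of all genes tested, 14.9% were lower and 16.8% higher at that age. Among the 7, Amh was tested only because of its wild-type P7 arrays and had to come out lower. Leukocyte markers (5 genes) averaged 0.23 to 0.45 in wild type and 0.46 to 0.88 in knockout at P0, and 0.00 to 0.05 beside 0.26 to 0.40 at P7. Endothelial markers (7 genes) averaged 0.79 to 1.11 beside 1.22 to 1.38 at P0, and 0.91 to 1.02 beside 1.04 to 1.12 at P7. The part of these shifts in the values below was not tested.

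Knockout ovaries had lower signal than wild type for most of the probes, at both ages and by more at P7. At P0 the 3 knockout arrays lay below every wild-type array for 11 of 16 probes (10.6% of all probes on the array did so), and at P7 for 14 of 16 (16.5%). The 11 include Khdc1a, which was below background throughout. Since the genes were picked for falls of this kind, these counts and the differences between genotypes describe the choice and carry no test. In wild type 8 probes were above background on all 3 arrays at P0 and 14 at P7. In knockout none was at P0 and 6 were at P7. Background was lower at P7, so these counts are not a measure of gain with age. Of all probes, 28.4% to 31.6% were above it on newborn knockout arrays and 46.0% to 48.8% on knockout P7 arrays. In wild type these shares were 33.8% to 36.9% and 48.4% to 50.4%. Omt2b probe 2 is among the 6, although its knockout mean was 0.00 at P0 and −0.30 at P7. The plot of scores on every array shows this for each probe.

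**Figure D1:**
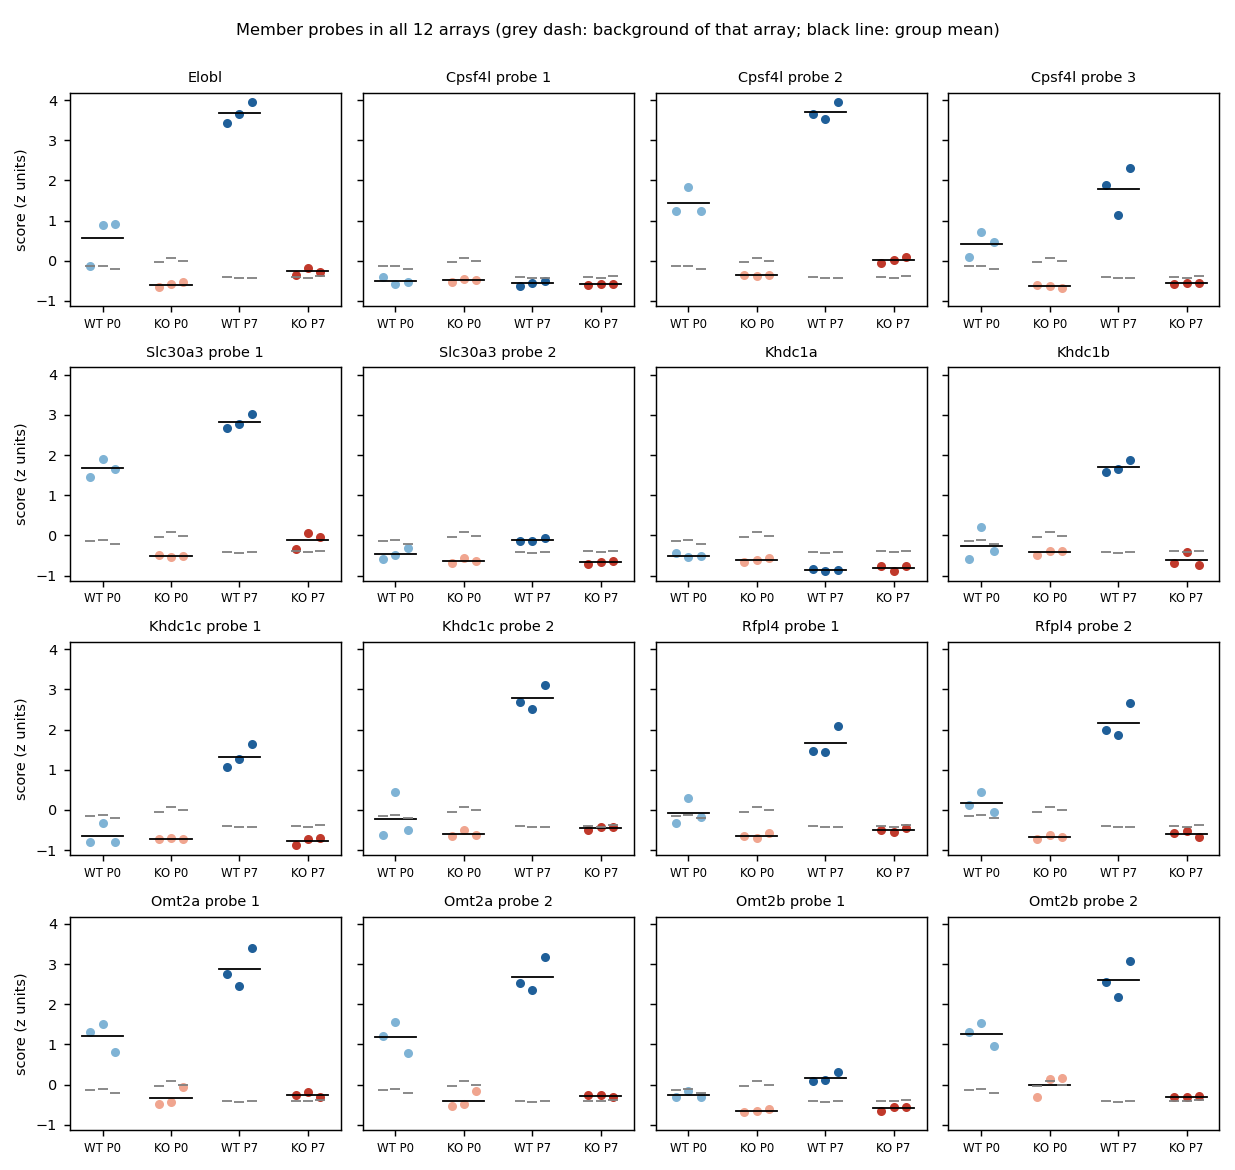
Quantile-normalized score (z units, vertical axis) of each of the 16 probes on the 12 arrays, in 1 panel a probe with the groups wild type and knockout at P0 and at P7; dots are arrays, black lines group means and grey dashes the background of that array. Wild-type P7 arrays stand highest in 14 panels, and the panels of Khdc1a and of Cpsf4l probe 1 stay at or below background.

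Elobl, the elongin B relative, had signal in wild-type ovaries at both ages, more at P7, and little in knockout. It scored −0.14, 0.89 and 0.92 in wild type against −0.65, −0.59 and −0.54 in knockout at P0. At P7 it scored 3.43, 3.65 and 3.94 in wild type against −0.35, −0.18 and −0.27 in knockout. The genotypes did not overlap at either age, and 1 newborn wild-type animal (replicate 1) sat just at its array's background while the other two were clearly above it. The difference, knockout minus wild type, was −1.15 ± 0.21 (SE of the fit, n = 3 a group) at P0 and −3.94 ± 0.21 at P7. At P0 the knockout arrays were below background, and against the background level itself the difference was at least −0.55. Bounds called "at least" below are of this kind.

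Cpsf4l has 3 probes, numbered in the order of their Illumina identifiers (ILMN_1216905, ILMN_2647225 and ILMN_2774260), and they disagreed. Probe 2 scored 1.23, 1.83 and 1.24 in wild type against −0.35, −0.37 and −0.35 in knockout at P0. The P7 scores were 3.66, 3.52 and 3.94 against −0.06, 0.02 and 0.10. The genotypes were far apart at both ages, by −1.79 ± 0.14 (at least −1.42) at P0 and −3.69 ± 0.14 at P7. Probe 3 ran the same way, with 0.10, 0.71 and 0.47 against −0.61, −0.63 and −0.68 at P0. Its P7 scores were 1.88, 1.15 and 2.31 in wild type against −0.58, −0.56 and −0.55 in knockout. Its differences were −1.07 ± 0.21 (at least −0.42) and −2.34 ± 0.21 (at least −2.18). Probe 1 was not above background on any of the 12 arrays, lay between −0.62 and −0.41, and says nothing on the gene.

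Slc30a3, the zinc transporter gene, was well above background at birth on its first probe (ILMN_2521965). Wild-type arrays scored 1.46, 1.91 and 1.66 and knockout arrays −0.50, −0.53 and −0.52 at P0. At P7 the scores were 2.68, 2.77 and 3.03 against −0.34, 0.06 and −0.05. The genotypes lay apart at both ages, by −2.20 ± 0.13 (at least −1.67) at P0 and −2.93 ± 0.13 at P7. The second probe (ILMN_2692938) was not above background at P0 in either genotype. At P7 it scored −0.15, −0.15 and −0.06 in wild type against −0.72, −0.66 and −0.63 in knockout, a difference of −0.55 ± 0.06 (at least −0.28).

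The Khdc1 genes separated the genotypes at P7 and hardly at P0. Khdc1b scored −0.60, 0.20 and −0.38 in wild type against −0.48, −0.38 and −0.40 in knockout at P0, so the groups overlapped. At P7 the arrays gave 1.58, 1.66 and 1.87 against −0.69, −0.42 and −0.74. The brighter Khdc1c probe (probe 2, ILMN_2835807) scored −0.63, 0.45 and −0.49 against −0.65, −0.51 and −0.62 at P0, again overlapping. The older animals gave 2.69, 2.52 and 3.12 against −0.51, −0.42 and −0.43. The differences at P7 were −2.32 ± 0.16 (at least −2.10) for Khdc1b and −3.23 ± 0.21 (at least −3.18) for this Khdc1c probe. The other Khdc1c probe differed by −2.09 ± 0.14 (at least −1.72). At P0 the differences were −0.16 ± 0.16 for Khdc1b and −0.37 ± 0.21 for the brighter Khdc1c probe. Both were above background at that age on 1 array, wild-type replicate 2, and without it the differences were 0.07 and −0.03. Khdc1a, in the same cluster on chromosome 1, was not above background on any array. Khdc1b and Khdc1c are close in sequence, and whether their probes tell them apart was not tested.

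Rfpl4, the RING finger gene, was just above background at birth and well above it at P7. Probe 2 (ILMN_2872334) scored 0.13, 0.45 and −0.04 in wild type against −0.73, −0.62 and −0.67 in knockout at P0. P7 scores were 1.99, 1.86 and 2.67 against −0.58, −0.53 and −0.68. No knockout array was above background at either age. The differences were −0.85 ± 0.17 (at least −0.17) at P0 and −2.77 ± 0.17 (at least −2.57) at P7. Probe 1 (ILMN_2605489) gave −0.57 ± 0.16 and −2.17 ± 0.16 (at least −2.07), and at P0 it was above background on 2 of the 3 wild-type arrays.

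Omt2a and Omt2b lie side by side on chromosome 9 and gave like differences. Omt2a probe 1 (ILMN_2517795) scored 1.32, 1.5 and 0.81 in wild type against −0.48, −0.43 and −0.07 in knockout at P0. At P7 it scored 2.75, 2.46 and 3.41 against −0.25, −0.18 and −0.31. Its second probe followed it closely, with differences of −1.58 ± 0.19 (at least −1.17) and −2.97 ± 0.19 beside −1.54 ± 0.21 (at least −1.20) and −3.12 ± 0.21. Omt2b probe 2 (ILMN_3105984) scored 1.30, 1.54 and 0.95 against −0.30, 0.14 and 0.16 at P0, and it was above background on 2 newborn knockout arrays. By P7 it scored 2.56, 2.19 and 3.08 against −0.30, −0.32 and −0.28. The differences were −1.26 ± 0.19 and −2.91 ± 0.19, and the dim first probe of Omt2b gave −0.40 ± 0.07 and −0.77 ± 0.07 (at least −0.58). Omt2a and Omt2b are near copies, and whether a probe of one also takes up RNA of the other was not tested.

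**Figure D2:**
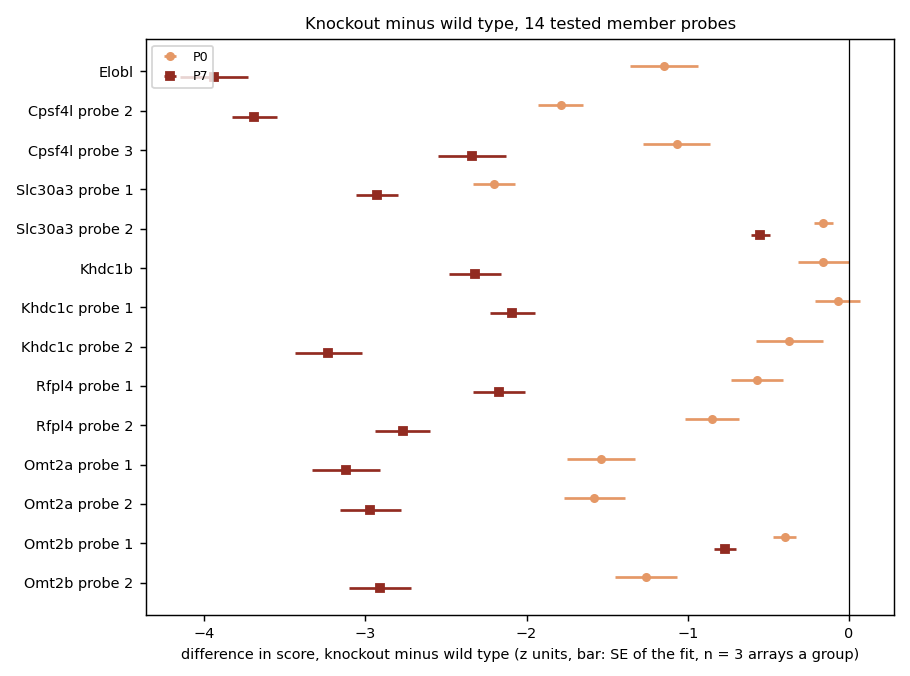
Difference in score between knockout and wild type (z units, horizontal axis) for the 14 probes above background on at least 3 arrays, at P0 (circles) and at P7 (squares), with bars for the SE of the fit. All 14 lie left of 0 at P7, from −0.55 for Slc30a3 probe 2 to −3.94 for Elobl, and both Khdc1c probes and Khdc1b lie close to 0 at P0.

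The newborn wild-type arrays differed among themselves in the same direction for most probes. Replicate 2 was the highest of the 3 for 12 of the 16 probes, and replicates 1 and 3 for 2 each. The spread was widest for Elobl (SD 0.60) and Khdc1c probe 2 (SD 0.59). At P7 the wild-type SDs of the 14 probes above background ran from 0.05 to 0.58, and the lowest wild-type array still stood above the highest knockout array for each of them.

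Age gave a comparison other than the one that chose the genes, although it rests on the same arrays and is not independent of them. In wild-type ovaries 14 of the 16 probes rose from P0 to P7 (limma, Benjamini-Hochberg adjusted p below 0.05) and none fell (also 0 at an unadjusted p below 0.05), where 28.2% of all 23144 probes tested rose and 22.3% fell. Khdc1a and Cpsf4l probe 1 were not tested, being dim. Khdc1a, below background on every array, scored lower at P7 in wild type (−0.36), with no overlap between ages. For 6 of the 14 (Slc30a3 probe 2, Khdc1b, both Khdc1c probes, Rfpl4 probe 1 and Omt2b probe 1) it took the wild-type P7 arrays to bring the probe above background on 3 arrays. These 6 had to come out higher at P7, so their rises are given with no p. The other 8 were tested, but a high wild-type score at P7 also enlarges the knockout fall for which genes were picked. Their p values are therefore no independent evidence of a rise, and age cannot be told apart from any difference in processing between P0 and P7. The rise was 3.12 ± 0.21 for Elobl (adjusted p = 8.59e-08), with no overlap between ages. Cpsf4l probe 2 rose by 2.27 ± 0.14 (adjusted p = 5.64e-08) and Rfpl4 probe 2 by 1.99 ± 0.17 (adjusted p = 6.26e-07). Smaller rises were those of Omt2a probe 1 with 1.66 ± 0.21 (adjusted p = 1.67e-05), Omt2b probe 2 with 1.35 ± 0.19 (adjusted p = 5.45e-05) and Slc30a3 probe 1 with 1.15 ± 0.13 (adjusted p = 8.03e-06). Among the 6 probes with no p, Khdc1c probe 2 was 3.0 ± 0.21 higher at P7 and Khdc1b 1.96 ± 0.16. The same count of 14 was called on the deposited scores, with median scaling, in a fit with the replicate number and without each array in turn.

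In knockout ovaries 15 of the 16 probes were above background on no array at P0 and 10 on none at P7, so most had no measured level in which a change could show. Of the 16 probes 2 rose and none fell in limma (also 2 and 0 at an unadjusted p below 0.05), where 30.7% of all probes tested rose and 20.1% fell. The 2 were Slc30a3 probe 1 (0.41 ± 0.13, adjusted p = 0.0163) and Cpsf4l probe 2 (0.37 ± 0.14, adjusted p = 0.0425, at least 0.01). Both calls were lost on the deposited scores, with adjusted p = 0.0737 for Slc30a3 and 0.087 for Cpsf4l. That of Slc30a3 was lost as well without knockout P7 replicate 2 (0.0843) or 3 (0.0527). That of Cpsf4l was lost without any one of the knockout arrays, with adjusted p from 0.0587 to 0.119, and without wild-type P7 replicate 1 (0.0527). Elobl differed by 0.33 ± 0.21 (adjusted p = 0.21), and passed without wild-type P0 replicate 1 (adjusted p = 0.0273). Khdc1b differed by −0.20 ± 0.16 (adjusted p = 0.31) and Omt2b probe 2 by −0.30 ± 0.19 (adjusted p = 0.205). At P7 the 6 probes above background on all knockout arrays were those of Elobl, Cpsf4l probe 2, Slc30a3 probe 1, both Omt2a probes and Omt2b probe 2. With background at the 99th percentile of the receptor probes, a setting chosen after the data were seen, 1 of them remained (Cpsf4l probe 2).

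**Figure D3:**
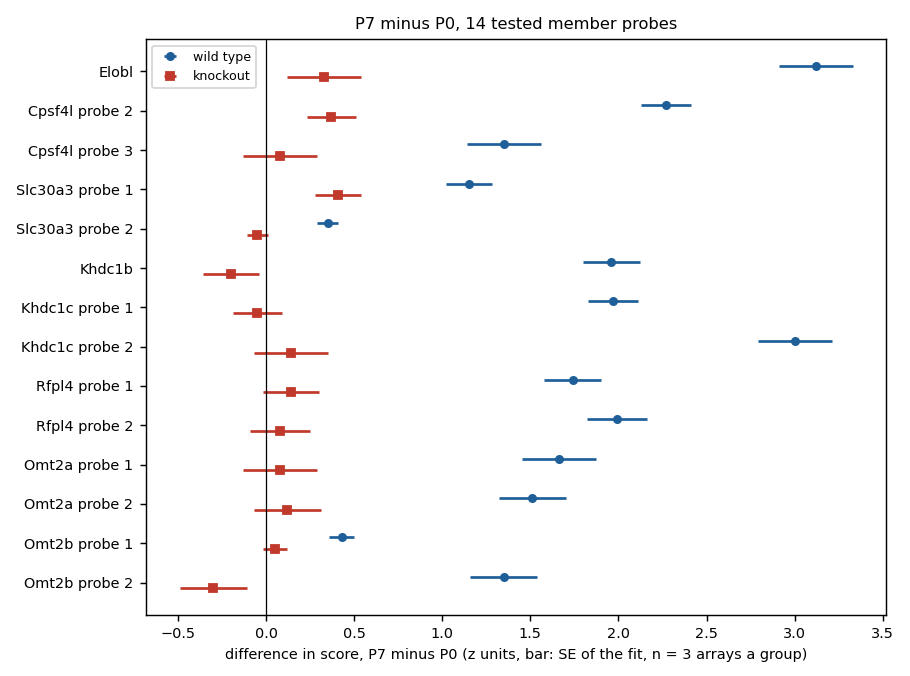
Difference in score between P7 and P0 (z units, horizontal axis) for the same 14 probes, in wild type (circles) and in knockout (squares), with bars for the SE of the fit. Wild-type values run from 0.35 to 3.12, and knockout values from −0.30 to 0.41.

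Scaling shifted the age differences of the whole array. Of all probes called between the ages, the share that was higher at P7 was 55.8% in wild type and 60.4% in knockout, but 81.5% and 84.6% with median scaling, and 73.0% and 70.1% with no normalization beyond the deposited one. The median difference over all probes, 0.03 in wild type and 0.06 in knockout, became 0.26 and 0.30 with median scaling and 0.18 and 0.15 with no normalization beyond the deposited one. The members' rises in wild type stayed positive in every one of these settings. Elobl rose by 2.60 and Cpsf4l probe 2 by 1.74 on the deposited scores, their lowest values, both well above the shift of all probes.

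The closest relatives of these genes were looked at to see which of them moved as well. Of 7 listed KH-domain genes of oocyte and early embryo, 3 fell in knockout at each age, and these were the direct relatives of the Khdc1 genes. None rose at P7 (0 at an unadjusted p below 0.05, and 1 with median scaling or on the deposited scores). Of all 12215 genes tested with 1 probe each, 10.7% fell and 9.03% rose at P0, and 14.9% fell and 16.8% rose at P7. Of all probes called, 42.3% were higher in knockout at P0 and 49.1% at P7. That share was 17.0% and 37.6% with median scaling, and 28.3% and 34.9% with no normalization beyond the deposited one. Ooep, a subunit of the subcortical maternal complex, fell by 3.67 ± 0.31 at P0 (adjusted p = 2.02e-06) and fell by 4.96 ± 0.31 at P7 (adjusted p = 2.26e-08). Khdc3, another subunit, differed by −1.36 ± 0.16 (adjusted p = 4.62e-05, at least −1.0) and −2.88 ± 0.16 (adjusted p = 7.01e-09). Dppa5a, a KH-domain gene of germ cells and pluripotent cells, differed by −2.07 ± 0.20 (adjusted p = 6.48e-06) and −4.08 ± 0.20 (adjusted p = 2.32e-09). Khdrbs2, an RNA-binding protein gene outside that group, rose at P0 by 0.33 ± 0.09 (adjusted p = 0.0188). That call was lost with median scaling (adjusted p = 0.143), on the deposited scores (0.0827), and without replicate 2 of wild-type P0 (0.0586) or of knockout P0 (0.0572). The median of the list was 0.04 at P0 and −0.28 at P7, beside 0.01 and 0.04 over all genes.

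Among RFPL and RING genes, the list chosen beside Rfpl4, 4 were tested, and 3 of these (Trim60, Trim61 and Trim75) reached background on enough arrays only through wild type at P7. Their lower scores in knockout at P7 are set by that filter and are given with no p. The fourth, Rnf114, did not depend on it. Trim61 differed by −0.60 ± 0.11 at P0 and −1.5 ± 0.11 at P7 (at least −1.23). At P0 it was above background on 2 wild-type arrays and on no knockout array, so that value has no p either. Rnf114, a ubiquitin ligase gene, differed by −0.42 ± 0.16 at P0 (adjusted p = 0.0738) and −1.23 ± 0.16 at P7 (adjusted p = 3.33e-05). The P0 value of Rnf114 passed without wild-type replicate 1 (adjusted p = 0.00693), with median scaling (0.0129) and on the deposited scores (0.0183). At P7 Trim60 differed by −0.46 ± 0.07 (at least −0.21) and Trim75 by −0.40 ± 0.09 (at least −0.27). Rfpl4b, the named relative of Rfpl4, was not above background on any array.

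In the PRAME family, to which Oog1 belongs, 5 of 16 listed genes were tested. Pramel13 fell at both ages, by 1.79 ± 0.24 at P0 (adjusted p = 0.000158) and by 1.82 ± 0.24 at P7 (adjusted p = 4.31e-05). Oog4 differed by −0.07 ± 0.07 at P0 (adjusted p = 0.504) and −0.26 ± 0.07 at P7 (at least −0.10). It was above background on the wild-type P7 arrays alone, so the P7 value carries no p. Pramel3 did not pass the test at P0 (0.20 ± 0.07, adjusted p = 0.0636) or at P7 (0.07 ± 0.07, adjusted p = 0.529). Oog2 and Oog3 were not above background on any array.

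The larger families around Elobl, Cpsf4l and Slc30a3 gave the following counts. Of 7 elongin complex genes limma called none at either age (at most 1 each way in the other settings), and the list's median was −0.07 at both. At an unadjusted p below 0.05, 3 were lower at P0, and 1 was lower and 1 higher at P7. Elob itself scored 4.06, 4.13 and 4.09 in wild type against 3.90, 3.79 and 3.86 in knockout at P0. The P7 arrays gave 3.91, 3.72 and 3.77 against 4.09, 4.04 and 3.94. The differences, −0.25 ± 0.09 (adjusted p = 0.0748) and 0.22 ± 0.09 (adjusted p = 0.0844), did not pass the test, and with median scaling and on the deposited scores the P7 value passed as higher (adjusted p = 0.012 and 0.011). The other Elob probe differed by 0.12 (adjusted p = 0.597) and 0.03 (adjusted p = 0.908). Eloc (−0.29 ± 0.13, adjusted p = 0.129, and −0.27 ± 0.13, adjusted p = 0.145) and the ligase subunit gene Rbx1 (−0.30 ± 0.11, adjusted p = 0.0639, and −0.23 ± 0.11, adjusted p = 0.127) did not pass either. Both Eloc values passed without wild-type P0 replicate 1, with adjusted p = 0.00754 at P0 and 0.0443 at P7.

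Of 21 tested genes for pre-mRNA cleavage and polyadenylation, 5 fell and 2 rose at P0, and 5 fell at P7 with none called higher by limma (1 at an unadjusted p below 0.05). Among the falls at P0, Cpsf2 (−0.33 ± 0.07) was above background on no newborn array of either genotype. The 5 falls at P7 became 3 with median scaling, on the deposited scores, and without wild-type P7 replicate 2 or 3 or knockout P7 replicate 3. The 2 rises at P0 became 0 with median scaling, on the deposited scores, and without wild-type P0 replicate 2 or 3 or knockout P0 replicate 3. They became 1 with no filter, in the fit with the replicate number, and without wild-type P0 replicate 1 or any one of the P7 arrays. The median was −0.07 at both ages. Cpsf4, the gene that Cpsf4l resembles, differed by −0.38 ± 0.10 at P0 (adjusted p = 0.0174, at least −0.03) and −0.10 ± 0.10 at P7 (adjusted p = 0.53). Its P0 call was lost on the deposited scores (adjusted p = 0.0748) and without wild-type P0 replicate 2 (0.0739) or 3 (0.0534) or knockout P0 replicate 3 (0.0608). Cpeb1, a regulator of cytoplasmic polyadenylation in oocytes, fell by 1.11 ± 0.10 at P0 (adjusted p = 3.81e-06) and fell by 1.01 ± 0.10 at P7 (adjusted p = 3.09e-06). At P7 Fip1l1 fell by 0.48 ± 0.09 (adjusted p = 0.00113) and Nudt21 by 0.43 ± 0.10 (adjusted p = 0.00432). The Nudt21 call was lost with median scaling (adjusted p = 0.226) and on the deposited scores (0.169).

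Of 22 tested genes of zinc transport and storage, 2 rose and 1 fell at P0, and 6 rose and 2 fell at P7. One of the P7 rises, Slc39a12 (0.35 ± 0.07, at least 0.22), passed the filter only through knockout at P7. It had to come out higher, so it is given with no p. The 6 rises became 3 without knockout P7 replicate 2, and with median scaling or on the deposited scores the falls were 3 at P0 and 4 at P7. At P0 the rises went to 1 without wild-type P0 replicate 1 or 2 or knockout P0 replicate 1 or 3, and the falls to 0 without wild-type P0 replicate 2 and to 2 without knockout P7 replicate 3. The list's medians were 0.07 and 0.11. Mt1, a metallothionein that binds zinc, rose by 0.68 ± 0.20 at P0 (adjusted p = 0.0314) and by 1.35 ± 0.20 at P7 (adjusted p = 0.000159). Its P0 call was lost without wild-type replicate 1 (adjusted p = 0.102) or 2 (0.107) or without any one of the knockout replicates (0.0511 to 0.0845). Slc39a4, a zinc importer, differed by 0.19 ± 0.15 at P0 (adjusted p = 0.427) and rose by 0.77 ± 0.15 at P7 (adjusted p = 0.00142). Slc39a6, a zinc importer described in mouse oocytes, fell by 0.39 ± 0.10 at P0 (adjusted p = 0.0133) and fell by 0.72 ± 0.10 at P7 (adjusted p = 6.6e-05). Its P0 call was lost without wild-type P0 replicate 2 (adjusted p = 0.0505). In the transporter family of Slc30a3 itself, Slc30a4 rose at P0 by 0.39 ± 0.07 (adjusted p = 0.00127) and Slc30a2 at P7 by 0.48 ± 0.13 (adjusted p = 0.0108). The Slc30a2 call was lost without knockout P7 replicate 2 (adjusted p = 0.0531).

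**Figure D4:**
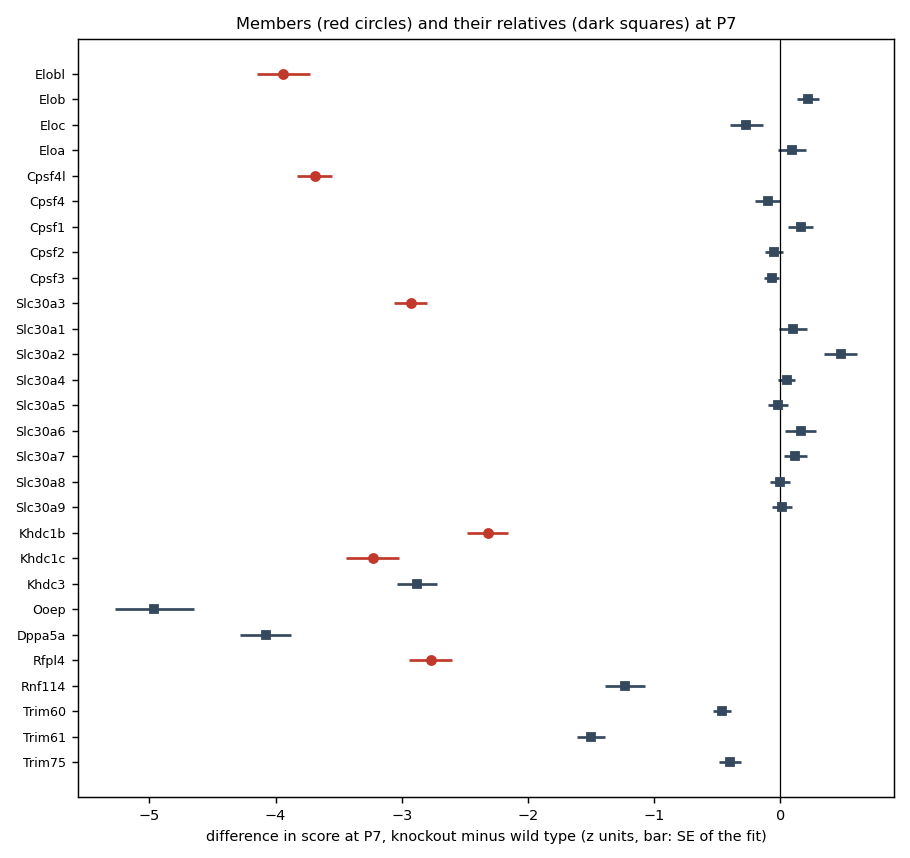
Difference in score at P7 between knockout and wild type (z units, horizontal axis) for the brightest probe of 6 followed genes (circles) and, below each, for its nearest relatives or subunits of its complex (squares), with bars for the SE of the fit. Elobl (−3.94), Cpsf4l (−3.69) and Slc30a3 (−2.93) lie left of the elongin subunits, the CPSF subunits and the Slc30a transporters drawn below them, which run from −0.27 to 0.48, and Khdc3, Ooep and Dppa5a lie beside the Khdc1 genes.

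Among the regulators whose motifs were searched, Lhx8 fell by 1.05 ± 0.15 at P0 (adjusted p = 0.000268) and fell by 1.21 ± 0.15 at P7 (adjusted p = 2.51e-05). Figla fell by 1.04 ± 0.16 at P0 (adjusted p = 0.000589) and fell by 1.62 ± 0.16 at P7 (adjusted p = 3.32e-06). Nobox differed by −0.48 ± 0.10 at P0 (at least −0.12) and −0.47 ± 0.10 at P7. Sohlh1 differed by −0.29 ± 0.13 at P0 (adjusted p = 0.132) and fell by 1.36 ± 0.13 at P7 (adjusted p = 2.38e-06), and its P0 value passed without wild-type P0 replicate 1 (adjusted p = 0.0147). Sohlh2 did not pass at P0 (−0.05, adjusted p = 0.699) or P7 (−0.12, adjusted p = 0.311), although it passed as lower at P7 with median scaling (0.0229) and on the deposited scores (0.0173). Tbpl2, an oocyte TATA-binding protein gene, differed by −0.47 ± 0.06 at P0 and −0.65 ± 0.06 at P7 (at least −0.39). It was above background on no knockout array, and Nobox on 1 knockout array, at P7. Of 11 regulators tested in all, the deleted gene included, 5 fell at P0 and 8 at P7, beside 10.7% and 14.9% of all genes. Of the 8, Obox1, Obox5 and Taf4b passed the filter only through wild type at P7 and had to come out lower. Tbpl2 and Nobox, counted at both ages, passed it only through wild-type arrays, so they are given with no p. None of the 11 rose in limma, also at an unadjusted p below 0.05 (0 higher).

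Across the 12 arrays the brightest probes of the 8 measured genes followed each other. Pearson's r between pairs ran from 0.840 (Slc30a3 with Khdc1b and with Khdc1c) to 0.99 (Khdc1b with Khdc1c, and Omt2a with Omt2b). The arrays fall into 2 ages and 2 genotypes and are shared by all pairs, so r is a description with no test. The genes were also picked from these arrays for falls in knockout or oocyte restriction. High r among them, and with other oocyte genes, therefore describes the choice. By the same measure the genes most like Elobl were Fbxw15 (0.994), Pnpla3 (0.992), Fbxw24 (0.989), Mos (0.989) and Ipcef1 (0.987), and those most like Cpsf4l were Mos (0.992), Cfap58 (0.99), Noto, Oas1e and Npm2 (each 0.989). Slc30a3 ran closest to Ftdc2 (0.993), Oas1d (0.992), Zp3, Rhpn2 and Setd4 (each 0.991). Khdc1b and Khdc1c were nearest to each other and to Klf17 (0.989 and 0.992), and both had Rph3al among their 5 (0.985 and 0.989). Beside them Khdc1b had Dpysl5 (0.987) and Pla2g4c (0.983), and Khdc1c had Nlrp9a (0.982) and Txndc2 (0.980). Rfpl4 was nearest to the oocyte growth factor gene Bmp15 (0.997), then Oosp2 (0.996), Bcl2l10 (0.996), Npm2 (0.992) and Oosp1 (0.99). Omt2a and Omt2b were both nearest to H1f8, the oocyte linker histone gene (0.99 and 0.991), with Fbxw18 among the 5 of each (0.987 and 0.988). Lhx8 itself was farther away, with r from 0.43 (Khdc1c) to 0.78 (Slc30a3).

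The genes beside them in the genome were read from the order in RefSeq (GRCm38.p6), up to 5 protein-coding genes on each side. Of 70 such neighbours 43 were tested, of which 8 fell and 4 rose in knockout at P0 and 5 fell and 9 rose at P7. Of all genes tested, 10.7% fell and 9.03% rose at P0, and 14.9% fell and 16.8% rose at P7. Among the rises at P7, Sstr2, near Cpsf4l, passed the filter only through knockout at P7 and had to come out higher. Among the falls of both ages, Dnajc5g passed only through wild-type arrays and had to come out lower. Epn1, which fell at P0 (−0.25 ± 0.06), was above background on no newborn array of either genotype. The median of the 43 was −0.05 at P0 and 0.06 at P7, beside 0.01 and 0.04 over all genes. Omt2a and Omt2b lie in a stretch with Dppa5a and Ooep, whose falls are given above. The following neighbours were chosen after their values were seen. Dnajc5g, the next gene to Slc30a3, differed by −0.47 ± 0.07 at P0 and −0.56 ± 0.07 at P7 (at least −0.48). It was above background on 2 wild-type arrays at P0, 3 at P7 and no knockout array, so neither value has a p. Rims1, which encodes a synaptic scaffold protein and lies near the Khdc1 genes, differed by −1.14 ± 0.09 at P0 (adjusted p = 1.59e-06, at least −0.67) and −0.21 ± 0.09 at P7 (adjusted p = 0.109). With median scaling and on the deposited scores its P7 value passed (adjusted p = 0.00842 and 0.00736). Ccdc106, near Rfpl4, rose by 0.48 ± 0.15 at P0 (adjusted p = 0.0342) and by 1.05 ± 0.15 at P7 (adjusted p = 9.62e-05). Its P0 call was lost with median scaling (adjusted p = 0.157), on the deposited scores (0.113), without any one of the wild-type P0 replicates (0.0953, 0.054 and 0.065) and without knockout P0 replicate 2 (0.139).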

How the data were processed

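GenomeStudio 2011.1 is named in the submitters' processing notes. What the authors deposited are scores that average 0 on each array, with SD 1. On 12 same-named columns of another deposited table the score equalled the z score of the log2 signal to within 0.022. That table's columns match no single sample by name, so 48 columns of per-sample values were not used otherwise.

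The 12 score columns were quantile-normalized, and the 23144 probes above background on at least 3 arrays were tested. A single limma model (version 3.58.1, R 4.3.3, lmFit and eBayes with trend) held the 4 groups and left 8 residual degrees of freedom. Benjamini-Hochberg adjustment ran over all probes tested, at 0.05. With 3 arrays against 3, exact permutation cannot give a p below 0.1. For gene lists the brightest probe of each gene was read, with its p from that fit. The shares over all genes were read from the same fit, at the brightest tested probe of each of 12215 genes. The design had assumed log2 signals, and the same model was fitted to the scores. In the annotation 34885 probes had 1 gene symbol, 18 had several (these were left unnamed) and 10378 had none. RefSeq's table of GRCm38.p6 held 99.8% of the gene IDs.

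The genes followed and all gene lists were chosen with earlier results of these data known. Named are all 10 genes with every probe, in each family list the 3 genes with the largest difference at P7 and the direct relatives, 6 oocyte regulators, and the 5 genes most like each in pattern. Khdrbs2, Trim75, Slc30a2, Slc30a4, Slc39a12, Sstr2, Obox1, Obox5, Taf4b, Cpsf2, Epn1 and Amh fall outside this rule and were named after their values were seen. Replicate numbers did not pair the arrays (r of same-numbered deviations from −0.16 to 0.14). The model was tested on simulated data for P7 against P0 in wild type (19772 probes), where it found 63 of 66 probes changed by 0.5 z units, all 67 changed by 1 and all 66 changed by 2, with 12 others called. Simulated probes were independent, shared the same SD and were not quantile-normalized. Real probes differ in spread, so this recovery does not measure recovery on the real arrays. Alternatives were the deposited scores, median scaling, no filter, 1 probe per gene, the replicate number as a block and leaving out each array. Precision is limited by the small number of arrays.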

Additional observations from a re-analysis of the deposited data

Results flagged for a closer look

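Of the genes named, 2 had a contrast in which every array of one comparison moved against every array of the other. Neither difference was tested. Dppa5a, the KH-domain relative of the Khdc1 genes, was higher at P7 than at P0 in wild type (1.30) and lower in knockout (−0.70). It scored 2.62, 3.52 and 2.58 at P0 and 4.04, 4.08 and 4.51 at P7 in wild type, and 0.93, 0.68 and 0.90 against 0.08, 0.19 and 0.13 in knockout. The directions held in the settings tried, but both calls were lost with median scaling (adjusted p = 0.191 in wild type against 0.436 in knockout) and on the deposited scores (0.31 and 0.196). Elob, the elongin B gene itself, differed between the ages by −0.30 in wild type against 0.17 in knockout, and between genotypes by −0.25 at P0 and 0.22 at P7. Its age difference in knockout turned negative with median scaling and on the deposited scores (down to −0.83), and its other probe differed by −0.08 and −0.18 between the ages (adjusted p = 0.651 and 0.324).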

How the results depend on the processing

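Among the 14 tested probes, genotype differences kept their direction under the alternatives run, except at P0 without wild-type P0 replicate 2 for Khdc1b (0.07) and Khdc1c probe 1 (0.09). The wild-type age count, 6 of it set by the filter, was 14 of 16 probes under each alternative that kept all probes of a gene. Over all probes, 4150 were called between genotypes at P0, 6462 at P7, 11697 between ages in wild type and 11752 in knockout. With 1 probe per gene the counts were 2624, 4031, 6091 and 6049, since fewer features are tested. With no filter on dim probes the age counts were 19136 and 18864, over more probes. In knockout the count of members higher at P7, 2 as reported, was 0 on the deposited scores and from 0 to 3 without single arrays, and 1 member was lower at P7 with no filter (Khdc1a, −0.20) and 1 on the deposited scores (Khdc1b, −0.31, adjusted p = 0.0472). With no filter, Khdc1a was lower at P7 in wild type as well (−0.36, limma adjusted p = 1.62e-05), though below background on every array. Members above background on all knockout arrays at P7 went from 6 to 1 with background at the 99th percentile. Age differences in knockout that turned, none of them called, were on the deposited scores Cpsf4l probe 3 (−0.05), Khdc1c probe 2 (−0.02), Rfpl4 probe 1 (−0.0024), Rfpl4 probe 2 (−0.04), Omt2a probe 1 (−0.0003) and Omt2b probe 1 (−0.07), and for Khdc1c probe 1 with median scaling (0.06) and without knockout P7 replicate 1 (0.01, with −0.08 the lowest without single arrays). The cause was not tested.

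With the replicate number as a block, 3950, 6336, 11549 and 11637 probes were called, and members higher with age were 14 in wild type against 2 in knockout. The numbers pair no animals. Signal over background limits the dim probes: 15 of 16 members were on no newborn knockout array above background, so their P0 differences are bounds where given.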
